A study of Mus musculus with 8 samples.

Results

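The interferon module described here comprises 45 genes: receptors and receptor kinases, signal transducers, interferon regulatory factors, nucleic acid sensors and genes that interferon induces. Members were found as probesets listed with exactly 1 gene symbol. By that rule 41 of the 45 genes were measured, by 42 probesets, out of 19938 genes and 21789 single-gene probesets on the array. Isg15, Gbp2 and Igtp lay on probesets listed with several genes, and Ifi44 had no probeset listed with it, so these 4 genes have no values here.

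The study asked what Tcf1, the transcription factor encoded by Tcf7, does at the start of T cell development. Lymphoid primed multipotent progenitors (LMPPs, a bone marrow stage that can still give rise to lymphoid and myeloid cells) were taken from Tcf7-/- and Tcf7+/+ mice. They were grown for 4 days on OP9-DL4 stroma, a bone marrow stromal line that displays the Notch ligand DL4, with IL1 and Flt3L in the medium. CD45.2+ cells were then sorted into 3 groups, giving 8 arrays. Tcf1-deficient lineage-negative (LN) cells, which lack Mac1, Gr1, Thy1 and CD25 on the surface, came from 3 Tcf7-/- mice. Wildtype LN cells of the same sort came from 3 Tcf7+/+ mice. Wildtype T lineage cells, positive for Thy1 and CD25, were measured as 2 replicates, which the labels call biological. The labels do not say whether these came from separate mice, so their spread may not cover differences between mice. Deficient progenitors gave no Thy1+CD25+ cells, so there is no deficient T group. The deficient mice lack Tcf1 in every tissue, had been backcrossed for about 6 generations and were kept on a mixed background. Tcf7 itself was not analysed here and therefore gives no check of the genotypes.

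Type I interferons bind a receptor made of Ifnar1 and Ifnar2, and interferon gamma binds one made of Ifngr1 and Ifngr2. The kinases Jak1 and Tyk2 (Jak1 and Jak2 for interferon gamma) then phosphorylate STAT proteins. A complex that includes Stat2 and Irf9 binds the interferon-stimulated response element (ISRE) in promoters of antiviral genes, whereas interferon gamma acts through another element, the gamma-activated site. Many of these genes are also transcribed at a low tonic level in haematopoietic cells without infection, and plasmacytoid dendritic cells are specialised producers of type I interferon.

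Promoter windows of 32 of the 41 measured members were found in the RefSeq promoter table (build GRCm38.p6), each running from 250 bases before to 50 after a transcript start of the table. The core of the ISRE, spelled GAAA, any 2 bases and GAAA again (TTTC, any 2 bases, TTTC on the other strand), stood in 13 of these 32 windows (40.6%), against 3.99% of the 27025 genes in the table. The letters TTCNNNGAA, the core of the gamma-activated site, which reads the same on both strands, stood in 9 (28.1%), against 9.55% of all genes; a gene with several starts there counts once. Both sets of letters stood in 2 members' windows. The following stretches of 50 bases, read 5′ to 3′ on the gene's strand, are shown because they carry the ISRE core in members of differing behaviour below. Capitals mark 1 core in each stretch, on either strand, upstream of the start that the table uses; for Ifit3 that start lies inside the gene as RefSeq bounds it, downstream of its first base. The Ifit1 and Gbp3 stretches each hold a further core, left in lower case, which in Gbp3 overlaps the marked one.
Stat2, chr10:128270256-128270305, plus strand: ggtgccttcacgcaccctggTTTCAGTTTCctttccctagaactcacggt
Ifit3, chr19:34583353-34583402, plus strand: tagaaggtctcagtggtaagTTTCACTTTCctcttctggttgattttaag
Trim30a, chr7:104465200-104465249, minus strand: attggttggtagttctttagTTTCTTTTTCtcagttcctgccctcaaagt
Gbp3, chr3:142559979-142560028, plus strand: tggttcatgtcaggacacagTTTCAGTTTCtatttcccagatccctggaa
Ifit1, chr19:34640765-34640814, plus strand: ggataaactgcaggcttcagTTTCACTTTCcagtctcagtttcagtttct
Oas3, chr5:120777705-120777754, minus strand: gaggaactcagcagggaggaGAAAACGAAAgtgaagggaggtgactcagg
Rsad2, chr12:26456543-26456592, minus strand: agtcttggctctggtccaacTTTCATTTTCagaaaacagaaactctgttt
Of these, Stat2, Ifit3, Trim30a and Gbp3 were lower in T lineage than in wildtype LN cells, whereas Ifit1, Oas3 and Rsad2 did not pass the test. The core stood in 5 of the 14 windows of members that were lower in T lineage cells (35.7%) and in 7 of the 15 windows of members that did not pass (46.7%). A match describes the letters and does not show that a factor binds there.

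Values are log2 expression after the authors' robust multi-array average (RMA), so a difference of 1 is a 2-fold difference. Within a group, arrays correlated at r = 0.995 to 0.997 over all probesets. Deficient and wildtype LN arrays correlated with each other at 0.9953 to 0.9965, so these values do not separate the 2 LN groups. In bulk samples, fewer cells of a type and less RNA per cell cannot be told apart. The labelled T lineage was borne out by its markers, of which 9 of 9 were higher than in wildtype LN cells, Thy1 and the CD25 gene Il2ra of the sort included. Of the dendritic cell markers, 8 of 8 measured plasmacytoid and 10 of 12 conventional were lower in T lineage than in wildtype LN cells. So were 8 of 16 granulocyte and monocyte markers, where 10.4% of all probesets were called lower. These lists do not show which cells were present. Mean levels of the plasmacytoid list were 9.30 to 9.54 in deficient LN, 9.63 to 9.81 in wildtype LN and 7.70 and 7.82 in T lineage arrays. For the conventional list they were 9.10 to 9.29, 9.18 to 9.50, and 6.36 and 6.42. Siglech, a defining plasmacytoid marker, measured 9.83 to 10.85 in the 6 LN arrays and 6.68 and 6.83 in the T arrays. Of the 10 stromal markers, none passed the test between T lineage and wildtype LN cells, and 2 (Sparc and Cxcl12) were lower in T lineage than in deficient LN cells, at -0.54 and -0.62. The part of these marker differences in the results on T lineage cells was not tested.

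T lineage cells were first compared with wildtype LN cells. The labels do not say whether these 2 groups share mice or cultures, and they were fitted as independent. Of the 41 measured members, 19 were lower and 3 higher in T lineage cells, and 19 did not pass (limma, adjusted p under 0.05 with Benjamini-Hochberg adjustment over all single-gene probesets). The lower members made up 46.3% of those measured, where 10.4% of all probesets were called lower. The higher members made up 7.32%, where 7.66% of all probesets were called higher, so their share was near the background. The median difference was -0.24 over the members and 0.04 over all probesets. Without 1 array it ran from -0.34 to -0.15, the latter without wildtype LN array 3. At least 2-fold lower were 9 members, against 2.38% of all probesets. The lower members included the receptor chains Ifnar1, Ifnar2 and Ifngr2, the transducer Stat2, and the effectors Sp100, Samhd1, Ifi27l2a, Mx1, Mx2 and Trim30a, whereas the kinase Jak1, the sensor Ddx58 and the exonuclease gene Isg20 were higher.

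**Figure D1:**
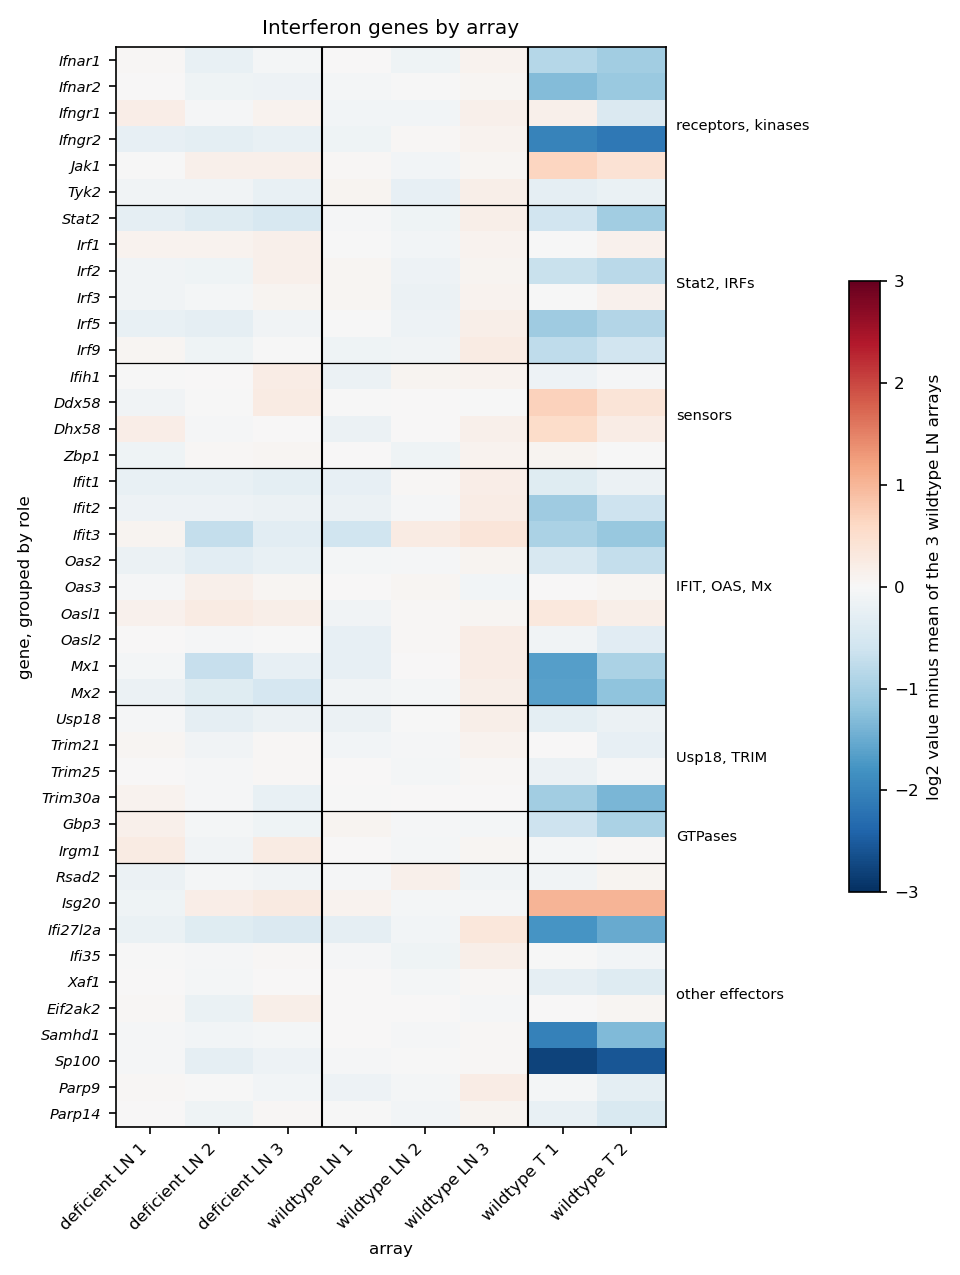
Level of each of the 41 measured members (rows, grouped by role) in each of the 8 arrays (columns), as log2 value minus the mean of the 3 wildtype LN arrays. The 2 T lineage columns hold the lowest values, 19 members being lower and 3 higher than in wildtype LN cells, and the 6 LN columns differ less from one another.

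Among the receptors and their kinases, 3 of 6 were lower, 1 was higher and 2 did not pass. Ifngr2, the signalling chain of the interferon gamma receptor, measured 7.29 and 7.14 in the T lineage arrays, 9.15, 9.31 and 9.39 in wildtype LN and 9.03, 9.0 and 9.06 in deficient LN arrays. The T lineage arrays lay far below every LN array. The difference from wildtype LN cells was -2.07 ± 0.09 (SE), or 4.20-fold lower (limma, adjusted p = 1.58e-07). Its partner Ifngr1, which binds the ligand, measured 10.53 and 9.94 in T lineage arrays, 10.31, 10.30 and 10.54 in wildtype LN and 10.58, 10.34 and 10.49 in deficient LN arrays. One T array lay within the LN range and the other below it, and the difference of -0.15 ± 0.15 from wildtype LN cells did not pass (adjusted p = 0.586). Thus one chain of the gamma receptor was lower on its own probeset and the other was not shown to differ.

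Both chains of the type I interferon receptor were lower. Ifnar2, the chain that binds interferon with high affinity, measured 10.27 and 10.47 in T lineage arrays, 11.53, 11.57 and 11.64 in wildtype LN and 11.59, 11.46 and 11.42 in deficient LN arrays. The T arrays were below all LN arrays, and the difference from wildtype LN cells was -1.21 ± 0.09, or 2.31-fold lower (adjusted p = 5.78e-06). Ifnar1, the chain that binds Tyk2, measured 8.53 and 8.34 in T lineage arrays, 9.38, 9.25 and 9.48 in wildtype LN and 9.42, 9.15 and 9.32 in deficient LN arrays. Again the groups did not overlap, with a difference of -0.94 ± 0.11, or 1.92-fold lower (adjusted p = 0.000121).

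Of the kinases, 1 was higher and 1 did not pass. Jak1, shared by both receptors, measured 11.44 and 11.23 in T lineage arrays, 10.83, 10.73 and 10.86 in wildtype LN and 10.80, 10.95 and 10.95 in deficient LN arrays. Both T arrays lay above every LN array, by 0.53 ± 0.09 relative to wildtype LN cells, or 1.44-fold (adjusted p = 0.00212). Tyk2 measured 7.34 and 7.40 in T lineage arrays, 7.69, 7.35 and 7.78 in wildtype LN and 7.49, 7.51 and 7.39 in deficient LN arrays. Its groups overlapped, and the difference of -0.24 ± 0.12 did not pass (adjusted p = 0.208), although it did without wildtype LN array 2 (adjusted p = 0.0213, the alternatives running from 0.0213 to 0.509).

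The genes Ifnar2, Il10rb, Ifnar1 and Ifngr2 are neighbours on chromosome 16, in that order in RefSeq's annotation. They were looked at together after their values had been seen. Il10rb, a receptor chain shared by interleukin 10 and the lambda interferons, had a T lineage level below that of wildtype LN cells, by -1.13 ± 0.14 (adjusted p = 0.00021). Beyond Ifngr2, Tmem50b was lower by -1.51 and Dnajc28 by -0.48, whereas Gart, a purine synthesis enzyme, was higher by 0.47 (adjusted p = 7.13e-06, 0.0016 and 0.00246). On the other side Olig1 and Olig2, transcription factors of oligodendrocytes, did not pass, at 0.04 and 0.05, and the next gene, 4932438H23Rik, was lower by -0.75 (adjusted p = 0.00182). Lower levels in T lineage cells were therefore not limited to the receptor genes of this neighbourhood, and the genes around them did not all move one way.

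**Figure D2:**
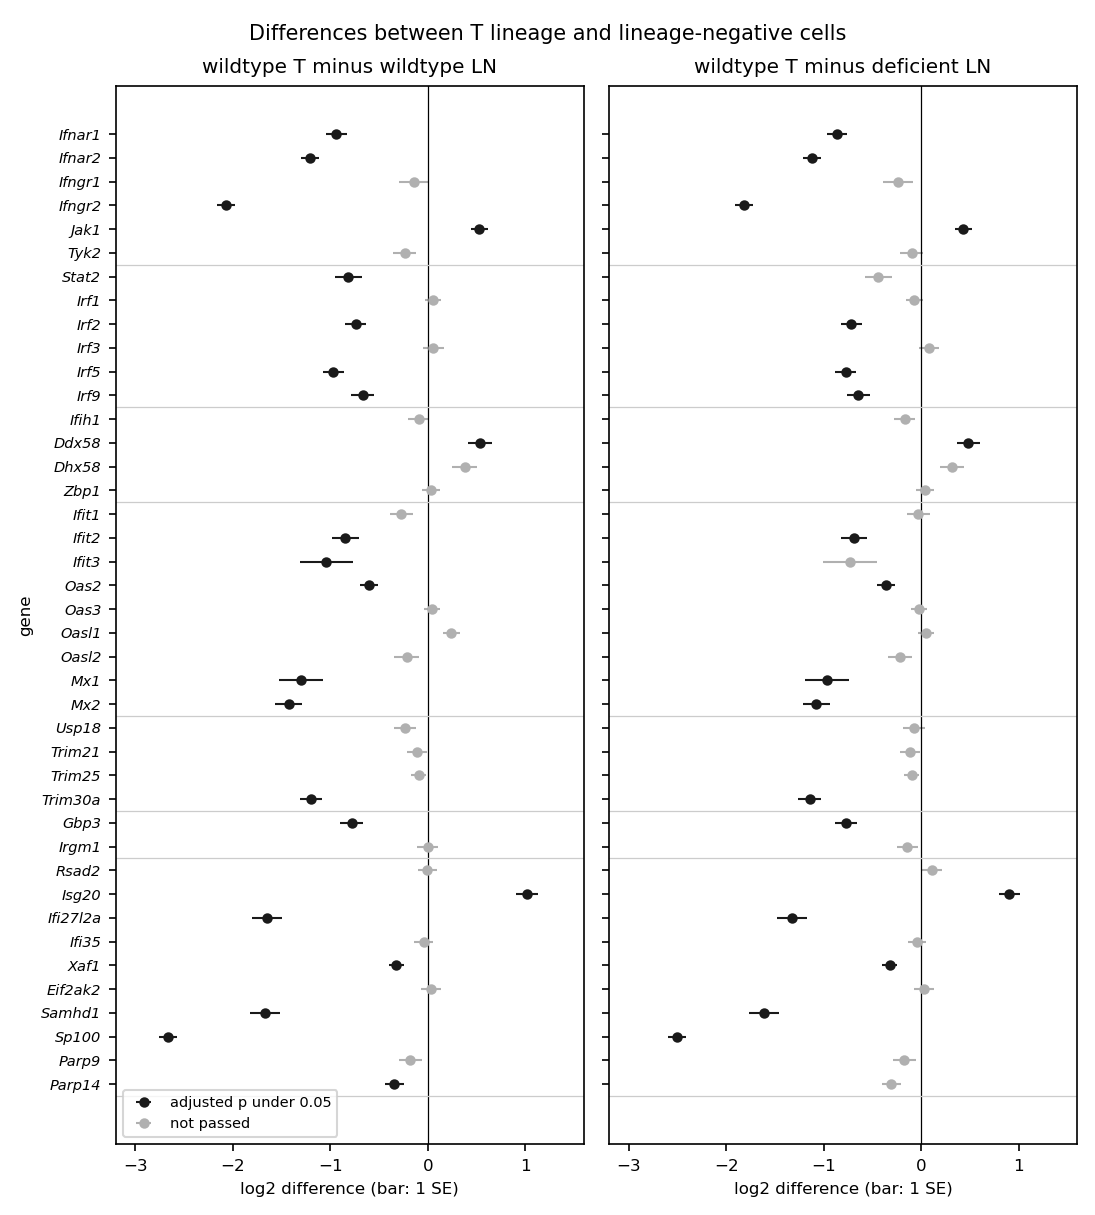
Log2 difference (points) with 1 SE (bars) for each of the 41 measured members, for T lineage minus wildtype LN cells and for T lineage minus deficient LN cells, coloured by whether the adjusted p was under 0.05. Sp100 at -2.66 and Ifngr2 at -2.07 lie farthest to the left against wildtype LN cells, and Isg20 at 1.02 lies farthest to the right; both panels share the T lineage arrays.

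Among the transducers and interferon regulatory factors, 4 of 6 were lower and 2 did not pass. Stat2 measured 8.15 and 7.68 in T lineage arrays, 8.70, 8.59 and 8.91 in wildtype LN and 8.46, 8.34 and 8.25 in deficient LN arrays. The 3 groups did not overlap, the deficient LN arrays lying between the other two. The difference of T lineage from wildtype LN cells was -0.82 ± 0.14, or 1.76-fold lower (adjusted p = 0.00189). Irf9, its DNA-binding partner, measured 7.45 and 7.64 in T lineage arrays, 8.07, 8.11 and 8.45 in wildtype LN and 8.27, 8.09 and 8.20 in deficient LN arrays. The T arrays were below all LN arrays, by -0.67 ± 0.12, or 1.59-fold (adjusted p = 0.00275).

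Irf5, which drives inflammatory cytokine genes downstream of Toll-like receptors, measured 7.27 and 7.45 in T lineage arrays, 8.31, 8.17 and 8.51 in wildtype LN and 8.12, 8.06 and 8.22 in deficient LN arrays. The T arrays lay below all others, with a difference of -0.97 ± 0.11 from wildtype LN cells, or 1.96-fold lower (adjusted p = 0.000106). Irf2, which can repress interferon-responsive promoters, was at 9.94 and 9.80 against 10.45 to 10.70 in wildtype LN arrays, a difference of -0.74 ± 0.11 (adjusted p = 0.000793). Irf1, an activator induced by interferon gamma, was at 0.05 (adjusted p = 0.739), and its other probeset gave -0.08, which did not pass either. Irf3, which switches on interferon genes after sensing of nucleic acids, was at 0.06 (adjusted p = 0.779).

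The nucleic acid sensors held 1 higher member and 3 that did not pass. Ddx58 (RIG-I), a cytoplasmic RNA sensor, measured 8.40 and 8.08 in T lineage arrays, 7.70, 7.72 and 7.70 in wildtype LN and 7.60, 7.71 and 7.96 in deficient LN arrays. The T arrays were above all LN arrays, by 0.54 ± 0.12 relative to wildtype LN cells (adjusted p = 0.00986). Without T lineage array 1 the difference was 0.38 and did not pass (adjusted p = 0.106, the alternatives running from 0.00456 to 0.106). Dhx58 (LGP2), a regulator of RIG-I, lay above wildtype LN cells in both T arrays, by 0.38 (adjusted p = 0.0627); it passed without wildtype LN array 3 (adjusted p = 0.0478) or without T lineage array 2 (adjusted p = 0.0324), and its adjusted p ran from 0.0324 to 0.437 over the alternatives. With the dimmest 40% of probesets removed, Dhx58 passed too (limma, adjusted p = 0.0465). Ifih1 (MDA5), the sensor of long double-stranded RNA, was at -0.09 and Zbp1, a sensor of Z-form nucleic acids, at 0.03, and neither passed.

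In the IFIT, OAS and Mx families of antiviral effectors, 5 of 9 members were lower and 4 did not pass. Members of these families resemble each other in sequence, so probes may cross-hybridise and the split between copies is uncertain. Mx2, a dynamin-like GTPase, measured 5.16 and 5.58 in T lineage arrays, 6.67, 6.74 and 6.96 in wildtype LN and 6.60, 6.42 and 6.29 in deficient LN arrays. The T arrays were below every LN array, and the difference from wildtype LN cells was -1.42 ± 0.14, or 2.68-fold (adjusted p = 4.38e-05). Mx1, which RefSeq lists as a transcribed pseudogene in the reference strain, measured 5.21 and 5.93 in T lineage arrays, 6.63, 6.87 and 7.10 in wildtype LN and 6.81, 6.17 and 6.61 in deficient LN arrays. It too was without overlap, at -1.30 ± 0.23 or 2.46-fold lower than in wildtype LN cells (adjusted p = 0.0022), although the T lineage arrays differed from each other.

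Ifit3, a partner of Ifit1 in binding viral RNA, measured 5.76 and 5.57 in T lineage arrays, 6.10, 6.94 and 7.06 in wildtype LN and 6.79, 5.99 and 6.39 in deficient LN arrays. The LN arrays were spread over about as much as the difference between the groups, which was -1.04 ± 0.27 against wildtype LN cells (adjusted p = 0.0233). Ifit3 did not pass once wildtype LN array 2 (adjusted p = 0.0787) or 3 (0.0785), or either T lineage array (0.0685 without the first, 0.124 without the second), was left out; over all alternatives its adjusted p ran from 0.00212 to 0.124. With all arrays kept, Ifit3 did not pass with all probesets either (limma, adjusted p = 0.085). Ifit2, which promotes apoptosis, was at 6.37 and 6.81 in T lineage and 7.25 to 7.66 in wildtype LN arrays, a difference of -0.85 ± 0.14 (adjusted p = 0.00144). Ifit1, which recognises RNA caps of viruses, lay at -0.27 and did not pass (adjusted p = 0.147), but did without wildtype LN array 1 (adjusted p = 0.0234, the alternatives running from 0.0234 to 0.537). Ifit3b and Ifit1bl2, copies in the same cluster on chromosome 19 that are not members, were at -0.22 and 0.04 and did not pass either.

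Oas2, which makes the second messenger that activates RNase L, measured 6.97 and 6.75 in T lineage arrays, 7.41, 7.43 and 7.55 in wildtype LN and 7.27, 7.14 and 7.23 in deficient LN arrays. The T arrays were lowest and the deficient LN arrays lay between, and the difference of T lineage from wildtype LN cells was -0.60 ± 0.09, or 1.52-fold (adjusted p = 0.00093). The related Oas3, Oasl1 and Oasl2 were at 0.04, 0.24 and -0.22, and none of them passed. Both T arrays lay above all wildtype LN arrays for Oasl1 (limma, adjusted p = 0.0801). It passed with a second quantile normalization, at 0.26 (adjusted p = 0.036). The OAS genes thus held 1 lower member of 4.

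Among the ubiquitin and TRIM genes 1 of 4 was lower. Trim30a, an inhibitor of inflammatory signalling, measured 10.18 and 9.85 in T lineage arrays, 11.19, 11.22 and 11.22 in wildtype LN and 11.31, 11.18 and 10.99 in deficient LN arrays. Both T arrays were below all LN arrays, by -1.20 ± 0.11 relative to wildtype LN cells, or 2.29-fold (adjusted p = 3.87e-05). Usp18, which removes ISG15 and dampens the type I receptor, was at -0.23, the antibody receptor gene Trim21 at -0.11, and Trim25, a ligase acting on RIG-I, at -0.10; none passed. Of the interferon-inducible GTPases, Gbp3 was lower, at 7.44 and 7.12 against 8.01 to 8.15 in wildtype LN arrays (difference -0.78 ± 0.11, adjusted p = 0.000754), and Irgm1, which acts on pathogen vacuoles, was at -0.0035 and did not pass.

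Among the other effectors, 5 of 10 were lower, 1 was higher and 4 did not pass. Sp100, a component of PML nuclear bodies, had the largest difference of all 41 members. It measured 8.0 and 8.20 in T lineage arrays, 10.73, 10.75 and 10.80 in wildtype LN and 10.73, 10.48 and 10.60 in deficient LN arrays. No T array came near an LN array: the difference from wildtype LN cells was -2.66 ± 0.09, or 6.34-fold (adjusted p = 3.75e-08). The mouse genome holds repeated Sp100-related copies, so the probeset may read more than one of them.

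Samhd1, which degrades deoxynucleotides and so limits retroviruses, measured 9.62 and 10.31 in T lineage arrays, 11.64, 11.61 and 11.66 in wildtype LN and 11.59, 11.56 and 11.57 in deficient LN arrays. The T arrays differed from each other, yet both lay below every LN array, by -1.67 ± 0.15 against wildtype LN cells, or 3.19-fold (adjusted p = 3.07e-05). Ifi27l2a, a small mitochondrial interferon-induced protein, measured 7.34 and 7.60 in T lineage arrays, 8.86, 9.04 and 9.47 in wildtype LN and 8.92, 8.77 and 8.70 in deficient LN arrays. It was without overlap too, at -1.65 ± 0.16 or 3.14-fold (adjusted p = 3.76e-05).

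Isg20, a 3′ to 5′ exonuclease, moved in the opposite direction. It measured 8.43 and 8.42 in T lineage arrays, 7.51, 7.35 and 7.36 in wildtype LN and 7.29, 7.61 and 7.67 in deficient LN arrays. Both T arrays were above all LN arrays, by 1.02 ± 0.11 against wildtype LN cells, or 2.03-fold (adjusted p = 0.000101). Of the remaining effectors, the apoptosis regulator Xaf1 was lower by -0.32 (adjusted p = 0.0135) and Parp14, an ADP-ribosyltransferase, by -0.34 (adjusted p = 0.0301). Xaf1 did not pass without T lineage array 2 (adjusted p = 0.115), nor did Parp14 without wildtype LN array 1 (0.0692), wildtype LN array 3 (0.103) or T lineage array 2 (0.236). Over the alternatives the adjusted p of Xaf1 ran from 0.00762 to 0.115 and that of Parp14 from 0.0203 to 0.236. With all arrays kept, Parp14 did not pass with a second quantile normalization (limma, adjusted p = 0.0557) or with all probesets (0.0706). Rsad2 (viperin), the Nmi partner Ifi35, the double-stranded RNA kinase Eif2ak2 and Parp9 were at -0.005, -0.04, 0.03 and -0.18 and did not pass.

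**Figure D3:**
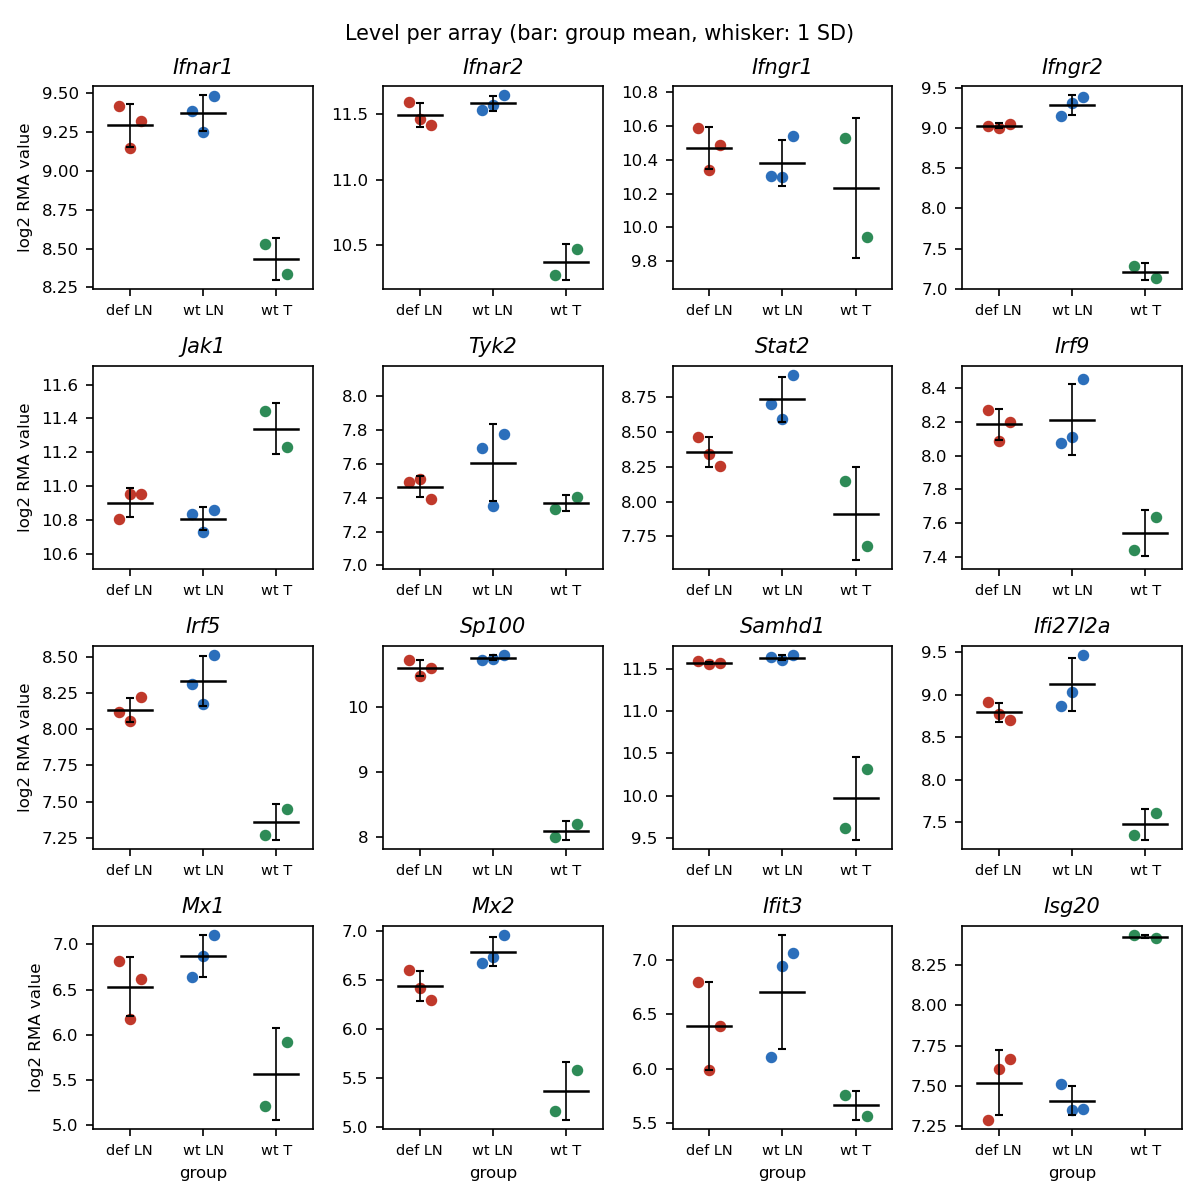
Log2 RMA value of selected members in each array (points), with the group mean (bar) and 1 SD (whisker), for deficient LN (n = 3), wildtype LN (n = 3) and wildtype T lineage cells (n = 2); each panel has its own vertical scale. Ifngr2 at 7.14 and 7.29 and Sp100 at 8.0 and 8.20 in T lineage arrays lie below all LN arrays, and Isg20 at 8.42 and 8.43 lies above them.

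T lineage cells were also compared with deficient LN cells. Since both comparisons use the same 2 T lineage arrays, they are not independent. Here 16 of 41 members were lower (39.0%, where 8.16% of all probesets were called lower), 3 were higher (7.32%, where 5.98% were called higher) and 22 did not pass. At least 2-fold lower were 7 members, against 2.02% of all probesets. The median difference was -0.21 over the members and 0.04 over all probesets. Without 1 array it ran from -0.33, without T lineage array 1, to -0.19. The higher members were again Jak1 (0.43), Ddx58 (0.49) and Isg20 (0.91). Without T lineage array 1 only Isg20 of these passed, Jak1 being at 0.33 (adjusted p = 0.0948) and Ddx58 at 0.33 (adjusted p = 0.188). Over the alternatives the adjusted p of Jak1 ran from 0.00593 to 0.0948 and that of Ddx58 from 0.00703 to 0.188.

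The members that differed most were as follows. Sp100 was lower than in deficient LN cells by -2.51 ± 0.09, or 5.68-fold (adjusted p = 6.08e-08). Ifngr2 followed at -1.82 ± 0.09, or 3.52-fold (adjusted p = 4.84e-07), and Samhd1 at -1.61, or 3.05-fold (adjusted p = 5.04e-05). Ifi27l2a was at -1.32 or 2.50-fold (adjusted p = 0.000221), Trim30a at -1.14 or 2.21-fold (adjusted p = 6.55e-05), and Ifnar2 at -1.12 or 2.17-fold (adjusted p = 1.3e-05). For each of these 6 genes both T lineage arrays lay below the 3 deficient LN arrays, as their values above show. By role, 3 of 6 receptors and kinases, 3 of 6 transducers and regulatory factors, 4 of 9 IFIT, OAS and Mx genes and 4 of 10 other effectors were lower. Ifnar1 (-0.86), Irf9 (-0.64), Irf2 (-0.72), Irf5 (-0.77) and Mx2 (-1.07) passed as well.

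Stat2, Ifit3 and Parp14 were lower against wildtype LN cells but did not pass against deficient LN cells. Stat2 was at -0.44 ± 0.14 (adjusted p = 0.0608) and passed without T lineage array 1, at -0.67 (adjusted p = 0.0108, the alternatives running from 0.0108 to 0.424). Ifit3 was at -0.73 (adjusted p = 0.115) and passed without wildtype LN array 1 (adjusted p = 0.0346), which enters only through the shared spread. Parp14 was at -0.31 (adjusted p = 0.0592) and passed without deficient LN array 2 (0.0467) or T lineage array 1 (0.0431). The adjusted p of Ifit3 ran from 0.0346 to 0.338 over the alternatives, and that of Parp14 from 0.0396 to 0.36. With the dimmest 40% of probesets removed, Stat2 (adjusted p = 0.0462) and Parp14 (0.0396) passed too, as did Parp14 with array weights (0.0462). Several calls were lost under some alternatives, with an array left out or with all arrays kept. Mx1 (-0.96, adjusted p = 0.0157) did not pass without deficient LN array 1 (adjusted p = 0.0571) or with all probesets (0.0703). Without T lineage array 1, Mx1 was at -0.61. Oas2 (-0.36, adjusted p = 0.024) did not pass without deficient LN array 1 (0.0736) or 3 (0.0639), with 2 groups only (0.0528) or with all probesets (0.0626). Without T lineage array 2, Oas2 was at -0.25. Ifit2 (-0.69, adjusted p = 0.0065) was lost without T lineage array 1 (0.0679), and Xaf1 (-0.32, adjusted p = 0.0173) without deficient LN array 3 (0.0526) or T lineage array 2 (0.138). Ddx58 (adjusted p = 0.02) was lost without deficient LN array 1 (0.0667) or 2 (0.0545) as well, and with 2 groups only (0.0542) or all probesets (0.0685). Ifngr1, at -0.24 (adjusted p = 0.379), passed without T lineage array 1, at -0.53 (adjusted p = 0.0326). Over the alternatives the adjusted p reached 0.149 for Mx1, 0.204 for Oas2, 0.0679 for Ifit2, 0.138 for Xaf1 and 0.856 for Ifngr1, and its lowest values were 0.00412, 0.0159, 0.00214, 0.00993 and 0.0326 in the same order.

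The comparison of deficient with wildtype LN cells asks what differs with the loss of Tcf1 among cells outside the T lineage gate. None of the 41 members passed limma's test, where 0.00459% of all probesets (1 probeset) were called; the smallest adjusted p among members was 0.778. The median difference was -0.03 over the members and -0.0075 over all probesets. Below 0 were 29 members and above 0 were 12, where 53.5% of all probesets were below 0. At an unadjusted p under 0.05 stood 7 members, or 17.1%, where 4.92% of all probesets did. Lower among these were 6 members, or 14.6%, where 3.07% of all probesets were, and 1 was higher. The deficient and wildtype arrays did not overlap for 7 members, also 17.1%, where 9.95% of all probesets did not overlap. For 6 of them every deficient array was below every wildtype array, as it was for 6.01% of all probesets. Among the plasmacytoid dendritic cell markers, 5 of 8 were lower in deficient LN cells at an unadjusted p under 0.05 (limma). For 4 of the 8 every deficient array was below every wildtype array. The median difference of this list was -0.27 and its smallest adjusted p was 0.198. This marker list includes Bst2 and Irf8, which are also counted among the interferon pathway genes below, so it is not separate from them. Of the 10 stromal markers, 3 (Sparc, Cxcl12 and Pdgfrb) were higher in deficient LN cells at an unadjusted p under 0.05, without overlap, with a smallest adjusted p of 0.0998. In either direction, 3 of 16 granulocyte and monocyte, 3 of 8 NK cell and 1 of 12 conventional dendritic cell markers stood at that threshold. So did 2 of 9 T lineage and 1 of 8 B lineage markers. Of these T lineage markers, 1 was lower in deficient LN cells by -1.02 and passed after adjustment (limma, adjusted p = 0.0283). It was the 1 probeset called between the genotypes. With the replicate block or with median centring no probeset was called. The part of these cell types in the members' differences was not tested.

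Ifngr2 had the smallest p of the members. Its deficient LN arrays, at 9.0 to 9.06, lay below the wildtype LN arrays, at 9.15 to 9.39, by -0.26 ± 0.08 (limma, unadjusted p = 0.00945, adjusted p = 0.778). Stat2 was likewise lower in all 3 deficient arrays, at 8.25 to 8.46 against 8.59 to 8.91, by -0.38 ± 0.12 (unadjusted p = 0.0114, adjusted p = 0.827). So were Oas2, by -0.24 ± 0.08 (unadjusted p = 0.0127, adjusted p = 0.831), and Mx2, by -0.35 ± 0.12 (unadjusted p = 0.0168, adjusted p = 0.872).

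Oasl1, an OAS-like protein that restrains Irf7 translation, was the exception in direction. It measured 7.09, 7.22 and 7.15 in deficient LN arrays, 6.87, 7.01 and 7.01 in wildtype LN arrays and 7.28 and 7.13 in T lineage arrays. All deficient arrays lay above the wildtype LN arrays, by 0.19 ± 0.08 (unadjusted p = 0.0321, adjusted p = 0.979). Ifit1 measured 6.29, 6.30 and 6.22 in deficient LN, 6.28, 6.56 and 6.71 in wildtype LN and 6.16 and 6.33 in T lineage arrays. Its LN groups overlapped at one wildtype array, with a difference of -0.25 ± 0.10 (unadjusted p = 0.0395, adjusted p = 0.979). None of these differences held after adjustment.

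One wildtype array stood apart in these genes. Wildtype LN array 3 was the highest of the 6 LN arrays for 25 of the 41 members (61.0%, against 16.0% of all probesets), and wildtype LN array 1 for none. Its median deviation from the mean of the LN arrays was 0.11 over the members and 0.001 over all probesets. Deficient LN array 2 was the lowest of the 6 for 13 members. The matching share of all probesets was not computed, so nothing is concluded from that count. Over all probesets, deficient LN array 2 was the highest of the 6 for 25.5%, the largest such share. Without wildtype LN array 3 the median member difference between the genotypes was 0.0094, 20 members were below 0 and 21 above, and 2 members stood at an unadjusted p under 0.05. Without deficient LN array 3 this last count was 3, and without deficient LN array 2 it was 5, with 21 members below 0. Some marker lists were also high in wildtype LN array 3. Its mean level stood above the LN mean by 0.24 for plasmacytoid dendritic cell, 0.26 for conventional dendritic cell and 0.36 for granulocyte and monocyte markers. The T lineage, B lineage, NK cell and stromal lists, at 6.67, 6.92, 6.95 and 6.515 there, lay within the range of the other LN arrays. The part of the dendritic and myeloid lists in the higher interferon genes of wildtype LN array 3 was not tested.

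**Figure D4:**
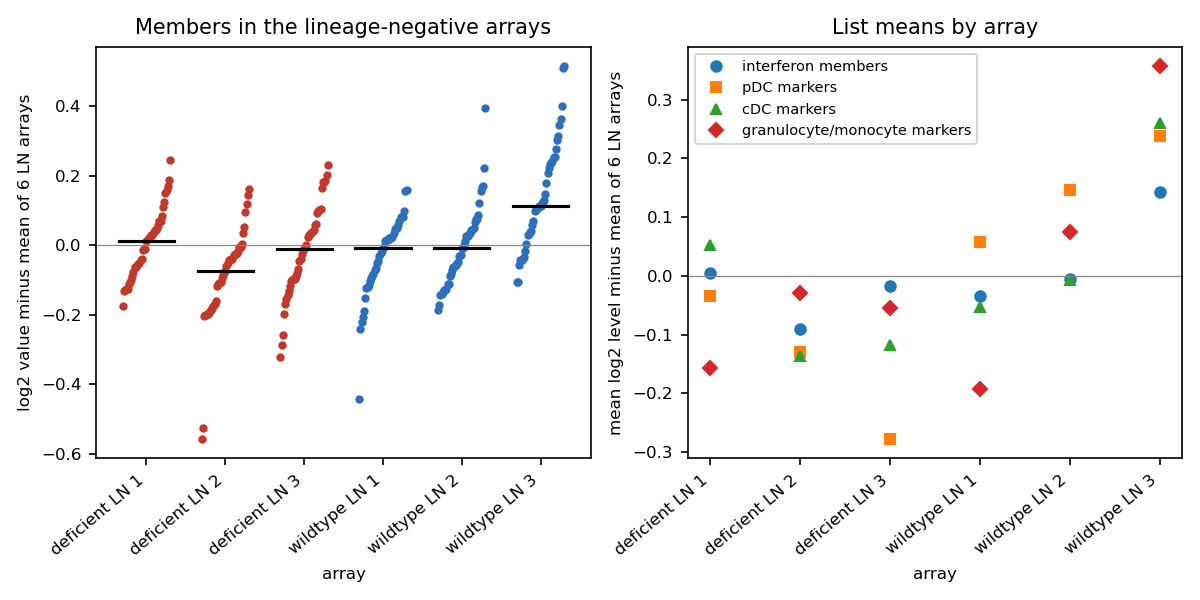
Left, log2 value of each of the 41 members minus its mean over the 6 LN arrays, by array; right, the mean level of the member list and of the marker lists in each LN array minus the mean of the 6 arrays. Wildtype LN array 3 is the highest for 25 members, with a median of 0.11, and the 3 marker lists of dendritic and myeloid cells are also above their mean in it.

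Other genes of the pathway, from lists that do not overlap with the members, gave the surroundings of these results. Of 93 such genes measured, 26 were lower in T lineage than in wildtype LN cells (28%, where 10.4% of all probesets were) and 8 higher (8.60%, near the 7.66% of all probesets), and none passed between deficient and wildtype LN cells. Of 15 interferon genes measured, 1 was lower (Ifnk, at -1.22) and 14 did not pass. Of 10 further receptors and transducers, 6 were lower: Irf8 (-3.02), a factor that dendritic cells require and here also in the plasmacytoid list, the gamma receptor kinase Jak2 (-1.18), Il10rb, Irf4 (-0.85), Irf7 (-0.65), which amplifies type I interferon genes, and Irf2bp2 (-0.37). Of 12 upstream sensors and adaptors, 5 were lower: the endosomal receptors Tlr7 (-2.27), Tlr3 (-1.97) and Tlr9 (-0.53), the kinase Tbk1 (-0.45) and the adaptor Myd88 (-0.38), while the kinase Ikbke was higher (0.35). Against deficient LN cells the same 93 genes held 20 lower and 8 higher, where 8.16% of all probesets were lower and 5.98% higher.

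The negative regulators were mixed. Of 13 measured, 4 were lower, namely the phosphatase Ptpn6 (-0.73), Pias1 (-0.56), the exonuclease Trex1 (-0.37) and the RNA editor Adar (-0.37), and 3 were higher, namely Ptpn11 (0.24), Pias4 (0.29) and Tnfaip3 (0.34). Socs1 and Socs3, feedback inhibitors of JAK kinases, were at 0.25 and 0.18 and did not pass. Of 43 further interferon-stimulated genes, 10 were lower, among them Slfn8 (-2.48), Slfn5 (-2.28), the lysosomal thiol reductase Ifi30 (-1.69), and Bst2 (tetherin, -0.95), which is also a plasmacytoid marker. The 4 higher genes were Lgals9 (1.48), Gm12250 (0.93), Lgals3bp (0.73) and Pml (0.39), and 29 did not pass. Pml, the scaffold of the nuclear bodies that also hold Sp100, was thus higher in the cells in which Sp100 was lower.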

How the data were processed

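RNA from each sorted population (10 ng, amplified with the NuGEN WTA-Ovation Pico kit per the labels' protocols) was hybridised to 1 mouse gene array a sample. The deposited values are log2 expression per probeset, made by the authors with RMA in Partek 6.5, per the submitters' processing notes; RMA equalises the arrays' distributions, so a shift of all genes would not be seen. Scan dates, array build and raw intensities were not used here. Of 35399 probesets, 21789 are listed with 1 gene, 1621 with several and 11989 with none; symbols follow the platform annotation. Arrays have no read depth; their number limits precision.

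All single-gene probesets were fitted with limma 3.58.1 (lmFit and eBayes, R 4.3.3), with 3 groups sharing 1 spread (5 residual degrees of freedom). Tests were two-sided, with Benjamini-Hochberg adjustment over all 21789 probesets and calls at an adjusted p under 0.05. Each gene is represented by its probeset of highest mean, which mattered for Irf1 only among the members. The script was tested on simulated data. All members appear by role. Values in every array are given for the receptors, Jak1, Tyk2, Stat2 and Irf9, and for the members that differed most: 12 for T lineage against wildtype LN cells, 6 against deficient LN cells, and the 6 of smallest p between genotypes. The members and lists were chosen with earlier results of these data known. Alternatives were leaving out each array, a replicate block, a filter removing the dimmest 40% of probesets, second quantile normalization, median centring, 2 groups only, array weights, all probesets and the probeset of smallest p. Of the marker lists, B lineage held 2 lower of 8 in T lineage against wildtype LN cells, and NK cell 2 lower and 2 higher of 8.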

Additional observations from a re-analysis of the deposited data

How the results depend on the processing

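All 22 members called in T lineage against wildtype LN cells kept their direction under every alternative run, and 18 of them passed under each. Against deficient LN cells 19 kept their direction and 13 passed under each, and between the genotypes none was called under any. Leaving out each array in turn gave 16 to 19 lower members against wildtype LN cells, and 14 to 17 lower and 1 to 3 higher against deficient LN cells. Where a T lineage array is left out, the lone one is assumed to vary like the other groups. Whether same-numbered arrays are paired could not be decided. Correlations of same-numbered deviations were -0.13, 0.017 and 0.043 between deficient and wildtype LN arrays. They were 0.158 and 0.12 between wildtype LN and T lineage arrays, and -0.138 and -0.247 between deficient LN and T lineage arrays. The deviations of the 2 T lineage arrays mirror each other, so these values cannot exclude pairing. With the replicate block, 3 members were higher and 18 lower against wildtype LN cells, and 3 and 15 against deficient LN cells. Between the genotypes none was called with the block. The calls lost with it were Ifit3 against wildtype LN cells (-0.95, adjusted p = 0.0726) and Mx1 against deficient LN cells (-0.89, adjusted p = 0.0508).

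Among the members given in every array, signs turned only for differences that were not called; other members near 0 turned too. Without 1 array these ran, between the genotypes, from -0.0961 to 0.0932 for Irf9, from -0.13 to 0.0336 for Trim30a and from -0.05 to 0.13 for Ddx58. Against wildtype LN cells Ifngr1 ran from -0.44 to 0.15. Against deficient LN cells Ifngr1 ran from -0.53 to 0.0567, Ifit1 from -0.11 to 0.0588 and Oasl1 from -0.0216 to 0.13; Ifit1 was at 0.0091 with the replicate block. The causes were not tested. The dimness filter leaves 35 of the 41 members. Signal over background was not available, so low values cannot be told from background.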
